A study of Mus musculus with 9 samples.

Results

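Bone and immature cartilage of the mouse were compared gene by gene in 6 of the 9 RNA-seq libraries of this series. The 3 Bone libraries were labelled osteoblasts and the 3 ImC libraries immature cartilage with immature chondrocytes. All came from C57BL/6J mice, with no treatment, age, sex or anatomical site in the labels used here. The mature cartilage libraries took no part in the fit. Every gene of the raw count table was eligible, and 13832 of 43472 genes had enough reads to be tested. Nothing in the labels says that the replicates came from separate animals, so each p-value reflects only how far these samples vary, a spread that may be technical.

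Chondrocytes and osteoblasts can arise from common mesenchymal precursors and are set apart by transcription factors and by the matrix they secrete. In cartilage, Sox9 with its partners Sox5 and Sox6 drives genes for type II, IX and XI collagens, aggrecan and link protein, which together form a hydrated gel. In bone, Runx2 and Sp7 (osterix) drive genes for type I collagen, for phosphoproteins that bind mineral and for enzymes such as alkaline phosphatase that allow mineral to form.

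Library totals ran from 7913684 reads in Bone 2 to 17606673 in ImC 3, and tested genes held at least 99.8% of the reads of each library. The Bone libraries resembled each other closely (Spearman correlation of counts across genes 0.973 to 0.982), whereas pairs of ImC libraries ranged from 0.837 to 0.958, the lowest being ImC 2 with ImC 3. Reads of the mitochondrial genome made up 44.1% ± 11.5 (SD, n = 3) of ImC libraries, between 32% and 55%, and 8.02% ± 0.841 (SD, n = 3) of Bone libraries, and 14 of 14 tested mitochondrial genes were lower in Bone (11 without Bone 1 or Bone 2). The part of that difference in other results was not tested, but taking those genes out gave 62 osteoblast list genes higher and 49 chondrocyte list genes lower, beside 63 and 48 with them. Levels below are read counts scaled to library size (CPM) with TMM factors, given in the order of replicates 1, 2 and 3, and differences are Bone minus ImC on the log2 scale from edgeR. In bulk tissue, fewer cells of a type and less RNA per cell cannot be told apart.

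The 2 tissues differed at 5225 genes, 37.8% of those tested (edgeR quasi-likelihood test, Benjamini-Hochberg adjusted p under 0.05). Of these, 2499 (18.1% of tested genes) were higher in Bone and 2726 (19.7%) were lower, and the median difference over all tested genes was 0.02. At 6674 genes the unadjusted p was under 0.05. Differences of at least 5 on the log2 scale were seen at 426 genes higher in Bone and 197 lower. With scaling by library size alone the split was 3088 higher to 1602 lower, 65.8% of calls higher in place of 47.8%, and the median of all genes moved by 0.46.

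Genes of the chondrocyte lists were mostly lower in Bone, and genes of the osteoblast lists mostly higher. Of 82 tested members of 6 chondrocyte lists, 48 were lower and 4 higher, beside 19.7% lower and 18.1% higher among all tested genes, with a median difference of -2.71. Of 95 tested members of 6 osteoblast lists, 63 were higher and 4 lower, with a median of 3.69. No library overlapped between tissues for 51 chondrocyte members with Bone below (28.3% of all tested genes were so) and for 75 osteoblast members with Bone above (31.3%), and 59.7% of all tested genes had no overlap either way. The lists were drawn from knowledge of these tissues with earlier results known, so the counts are descriptions. Lists reported below also share members, such as Dlx3 and Mmp13, so counts of different lists are not separate results.

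**Figure D1:**
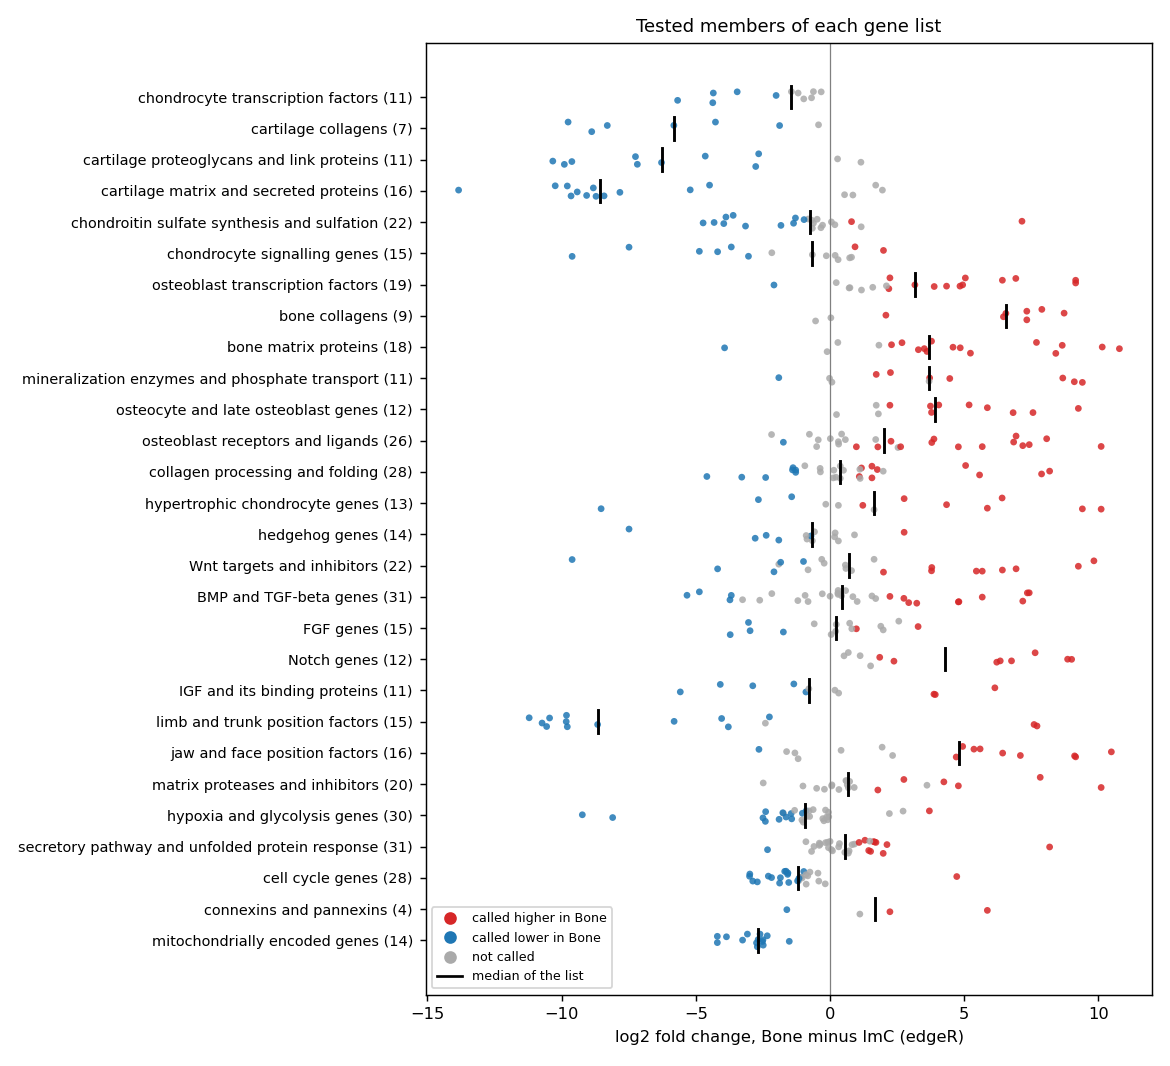
Log2 difference between Bone and ImC (x axis, edgeR) of each tested member of the gene lists (rows, number tested in brackets). Each point is a gene, coloured by call, and the black bar is the median of the list: the medians of the cartilage collagen, proteoglycan and matrix lists lie between -8.57 and -5.82, and those of the osteoblast lists between 2.03 and 6.55.

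The chondrogenic trio of transcription factors separated the tissues without overlap. Sox9 (chr11:112782224-112787760, + strand), the master regulator of cartilage, was at 1079, 1098 and 682 CPM in ImC and at 35.3, 56.6 and 48.6 CPM in Bone, a difference of -4.35 ± 0.35 (SE, adjusted p = 0.000326). Sox5 went from 375, 268 and 464 CPM in ImC to 8.44, 6.63 and 6.49 CPM in Bone, a difference of -5.68 ± 0.33 (adjusted p = 0.00014). Sox6 was the least changed of the trio, at 195, 261 and 137 CPM in ImC and 49.6, 45.8 and 51.6 CPM in Bone (-2.01 ± 0.29, adjusted p = 0.00264). Sox6 and Sox9 reads were thus present in all 3 Bone libraries. Shox2, a homeobox factor of proximal limb cartilage, was also lower, at 239, 50.6 and 237 CPM in ImC and 10.2, 15.4 and 22.1 CPM in Bone. In all, 5 of 11 tested chondrocyte transcription factors were lower and 0 higher, and without ImC 3 there were 10 of 13 lower and 1 higher. Trps1, a repressor active in growth cartilage, was at 269, 526 and 202 CPM in ImC and 195, 298 and 301 CPM in Bone and did not pass the test (adjusted p = 0.539).

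Of the 7 cartilage collagen genes 6 were lower in Bone, by very unequal amounts. Col2a1 (chr15:97975602-98004695, - strand), the major fibril of cartilage, was at 10440, 10640 and 12120 CPM in ImC and still at 857, 493 and 376 CPM in Bone, a difference of -4.27 ± 0.42 (adjusted p = 0.000799). The 3 type IX genes, whose product decorates the type II fibril, were far lower in Bone. Col9a1 was at 3437, 1454 and 1594 CPM in ImC and 4.77, 4.46 and 4.49 CPM in Bone (-8.88 ± 0.53, adjusted p = 0.000145). Col9a2 differed by -8.30 ± 0.40 and Col9a3 by -9.76 ± 0.44 (adjusted p = 8.88e-05 for both). The type XI genes behaved otherwise. Col11a1 was at 5044, 3060 and 3998 CPM in ImC and 2674, 3427 and 2891 CPM in Bone, overlapping levels whose difference had an interval of -1.13 to 0.28 (adjusted p = 0.293). Col11a2 was lower by the test (adjusted p = 0.0178), with 1948, 1216 and 4009 CPM in ImC and 725, 681 and 542 CPM in Bone. Its adjusted p rose to 0.0616 without Bone 1, 0.0735 without Bone 2 and 0.0818 without Bone 3, and its difference of -1.88 became -1.28 without ImC 3.

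Summed over the 7 genes, cartilage collagens took 3.17% to 4.59% of the non-mitochondrial reads in ImC and 0.51% to 0.584% in Bone. Col1a1 and Col1a2 together took 10.3% to 11.9% in Bone and 0.0928% to 0.106% in ImC. Ibsp alone took 2.7% to 3.27% in Bone, and Sparc 1.32% to 1.54%.

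**Figure D2:**
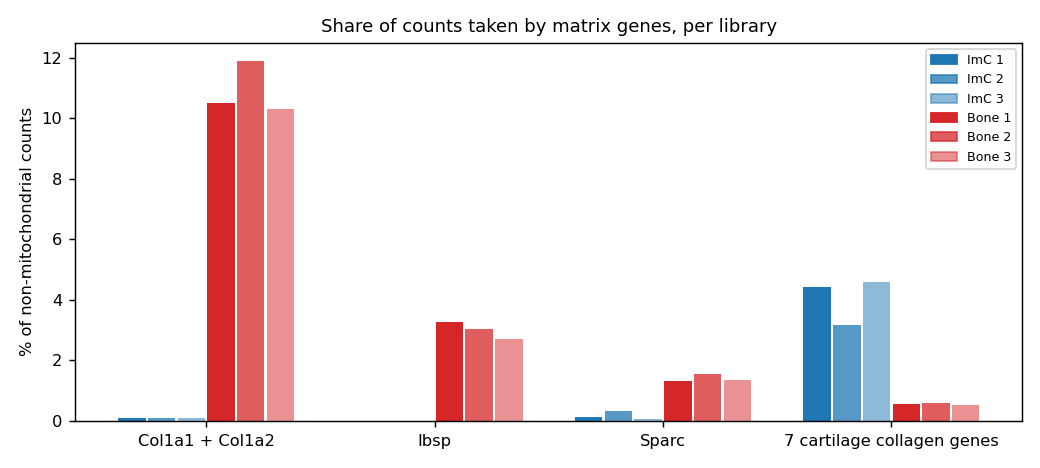
Percent of non-mitochondrial counts (y axis) taken by type I collagen genes, Ibsp, Sparc and the 7 cartilage collagen genes in each of the 6 libraries (bars, shaded by replicate). Type I collagen reaches 11.9% in Bone 2 and stays near 0.1% in the ImC libraries.

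The proteoglycan and matrix genes had the lowest medians among the chondrocyte lists. Of 11 tested proteoglycan and link protein genes 9 were lower and 0 higher (median -6.28), and of 16 other matrix and secreted proteins 12 were lower and 0 higher (median -8.57, or -8.13 with genes at 0 reads set to their bound). The promoter sequences of Matn1 and Epyc are shown because both genes were on in ImC, Epyc unevenly across libraries, and nearly off in Bone. They are the 250 bases before the RefSeq start on GRCm38.p6, at chr4:130944135-130944384 (+ strand) for Matn1 and chr10:97643818-97644067 (+ strand) for Epyc. Capitals mark a match to TGTGGT, the core bound by Runx factors, or to ACAATG, a core bound by Sox factors, on either strand.
Matn1: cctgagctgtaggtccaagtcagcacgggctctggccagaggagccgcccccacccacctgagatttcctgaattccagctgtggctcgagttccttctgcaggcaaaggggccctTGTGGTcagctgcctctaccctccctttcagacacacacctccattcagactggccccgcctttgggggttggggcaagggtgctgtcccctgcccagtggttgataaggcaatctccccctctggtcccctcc
Epyc: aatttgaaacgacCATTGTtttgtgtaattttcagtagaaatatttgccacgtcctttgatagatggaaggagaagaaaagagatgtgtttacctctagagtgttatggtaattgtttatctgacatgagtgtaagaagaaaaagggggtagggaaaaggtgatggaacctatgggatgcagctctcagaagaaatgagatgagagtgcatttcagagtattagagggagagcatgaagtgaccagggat
Matn1 holds TGTGGT at -134 to -129 from the start. Epyc holds the reverse complement of ACAATG at -237 to -232.

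Matn1, which encodes the cartilage matrix protein matrilin-1, was at 3202, 722 and 2646 CPM in ImC and 1.63, 1.3 and 2.42 CPM in Bone, a difference of -10.24 ± 0.80 (adjusted p = 0.0003). Acan (chr7:79053483-79115099, + strand), the large aggregating proteoglycan, was at 1402, 1073 and 1669 CPM in ImC and 0.749, 1.09 and 2.42 CPM in Bone (-9.90 ± 0.61, adjusted p = 0.000155). Its difference was -10.54 without Bone 3, the Bone library with the most Acan reads. Hapln1, the link protein that ties aggrecan to hyaluronan, fell less, from 1663, 1024 and 715 CPM to 76.1, 30.1 and 28.9 CPM (-4.65 ± 0.56, and -5.25 without Bone 1). Susd5 was at 446, 254 and 264 CPM in ImC and at or under 0.341 CPM in Bone (-10.33 ± 0.58, adjusted p = 0.000122). Cytl1, a small secreted protein of cartilage, differed by -9.79 ± 0.66 (adjusted p = 0.000202). Scrg1 (chr8:57455923-57477585, + strand) had 149, 199 and 90.9 CPM in ImC and no read in Bone, at least 1935-fold lower when Bone is set to the floor of 3 reads over the group.

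Epyc, a small leucine-rich proteoglycan of growth cartilage, was at 531, 20.7 and 266 CPM in ImC and at most 0.545 CPM in Bone (-9.62 ± 1.38, adjusted p = 0.00274, -8.68 without ImC 1 and -10.22 without Bone 1). Fmod, fibromodulin, was at 288, 1355 and 71.2 CPM in ImC, highest in ImC 2, and at 2.25, 2.28 and 6.63 CPM in Bone. Its difference of -7.25 became -5.61 without ImC 2 and -7.95 without Bone 3. Comp was at 260, 158 and 514 CPM in ImC and 0.817, 0.435 and 1.35 CPM in Bone (-8.42 ± 0.68, and -7.83 without ImC 3). Prg4, lubricin of the joint surface, was near 1 to 2 CPM everywhere, with 0.932, 2.28 and 0.794 CPM in ImC and 0.885, 2.17 and 1.93 CPM in Bone. Lum, a fibrillar collagen binder not restricted to cartilage, was at 315, 41.8 and 97.9 CPM in ImC and 251, 596 and 628 CPM in Bone (adjusted p = 0.104, and 0.0229 without ImC 1).

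Chondroitin sulfate chains give aggrecan its charge. Of 22 tested genes of their synthesis 10 (45.5%) were lower in Bone and 2 (9.09%) higher, with a median of -0.75. Among all tested genes 19.7% were lower and 18.1% higher. Slc26a2, the sulfate transporter, was at 998, 667 and 1267 CPM in ImC and 81.7, 73.5 and 84.1 CPM in Bone (-3.61 ± 0.32, adjusted p = 0.000525). Papss2, which makes the activated sulfate donor, was at 466, 438 and 309 CPM in ImC and 41.3, 51.5 and 43.9 CPM in Bone (-3.15 ± 0.27, adjusted p = 0.000442). Csgalnact1, which starts the chain, was at 207, 182 and 236 CPM in ImC and 12.3, 12 and 15.8 CPM in Bone (-3.96 ± 0.25, adjusted p = 0.00016). The genes that were higher were Chst13, a chondroitin 4-O-sulfotransferase, and Csgalnact2. Chst13 had 0, 0.0616 and 0.529 CPM in ImC and 34.2, 27.6 and 23.9 CPM in Bone (7.15 ± 0.78, adjusted p = 0.00107, and 9.21 without ImC 3). Csgalnact2 was at 17.2, 16.4 and 11.7 CPM in ImC and 24, 29.2 and 25.8 CPM in Bone (adjusted p = 0.04), with adjusted p between 0.0543 and 0.135 when any library other than ImC 3 was left out. Without ImC 3, 4 genes were higher.

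Among 15 tested signalling genes of chondrocytes 6 were lower and 2 higher. Fgfr3, a receptor that restrains chondrocyte proliferation, was at 370, 162 and 523 CPM in ImC and 26.9, 49.7 and 51.9 CPM in Bone (-3.04 ± 0.49, adjusted p = 0.0042). Bmpr1b, a BMP receptor of early cartilage, went from 18, 32.8 and 21.3 CPM to 0.817, 1.09 and 2 CPM (-4.19 ± 0.46, adjusted p = 0.00107). Pthlh, which encodes PTHrP, the ligand that holds chondrocytes in the immature state, was at 30.2, 41.1 and 7.24 CPM in ImC and at most 0.326 CPM in Bone. Its difference of -7.49 was -8.36 without Bone 2 and -6.84 without Bone 3. Frzb, a secreted Wnt antagonist listed here for its role in cartilage, was higher in Bone, at 395, 381 and 393 CPM against 129, 65.6 and 99.8 CPM (1.99 ± 0.30, adjusted p = 0.00313). Sik3, a kinase needed for chondrocyte maturation, was also higher (0.93 ± 0.22, adjusted p = 0.0146), a call lost without any 1 of the Bone libraries (adjusted p 0.0515 to 0.0693).

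**Figure D3:**
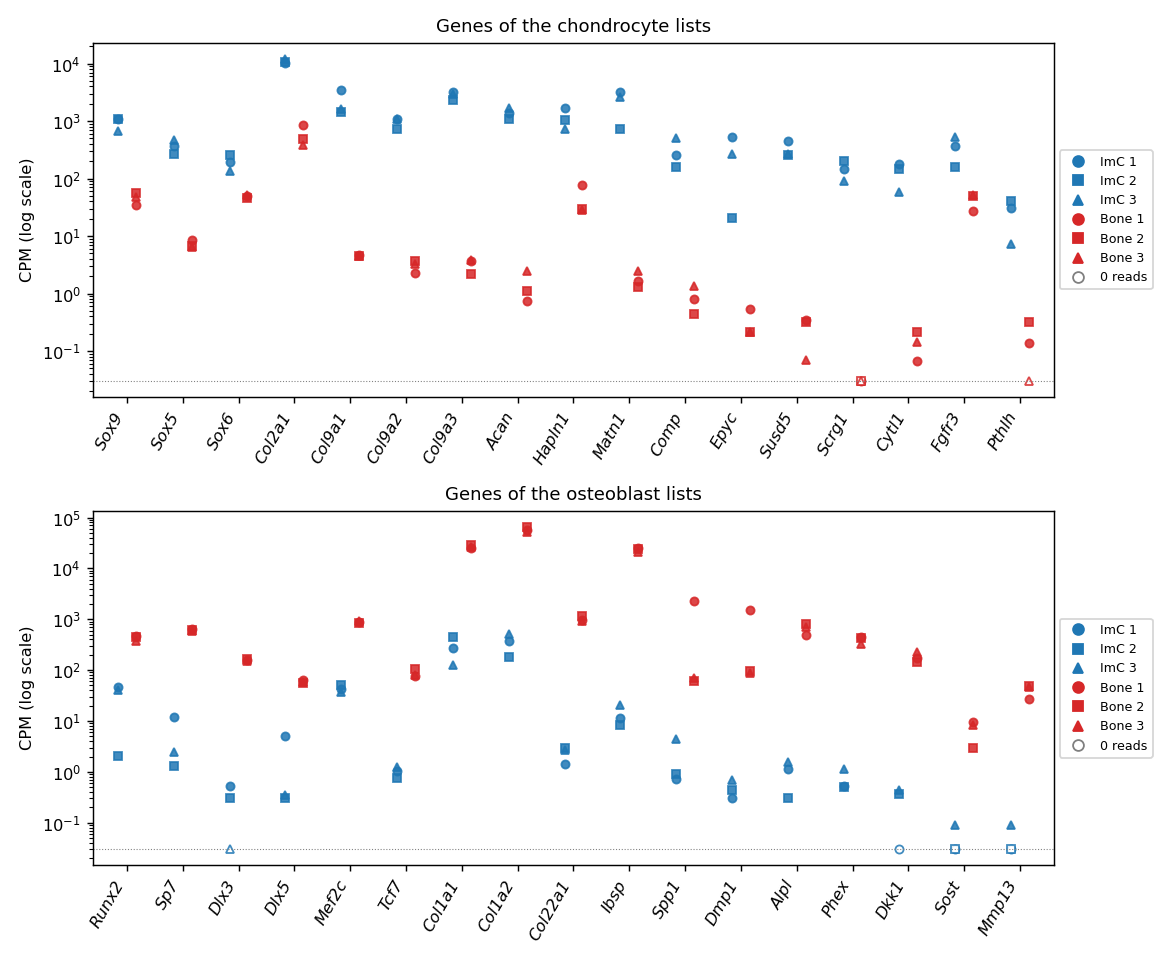
Level in CPM (y axis, log scale) of leading genes of the chondrocyte lists (top) and osteoblast lists (bottom) in each library, with ImC in blue, Bone in red and a marker shape per replicate. Open symbols on the dotted line mark 0 reads: Scrg1 has none in any Bone library, and in the lower panel Spp1 and Dmp1 of Bone 1 stand above Bone 2 and Bone 3.

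Osteoblast transcription factors were mostly higher in Bone. Of 19 tested, 12 were higher in Bone and 1, Lef1, was lower, with a median of 3.16. Sp7 (chr15:102356606-102367182, - strand), needed for osteoblast formation, was at 11.7, 1.29 and 2.47 CPM in ImC and 650, 610 and 581 CPM in Bone (6.92 ± 0.89, adjusted p = 0.00194, and 8.36 without ImC 1). Runx2, which acts before it, was at 45.5, 2.03 and 41.1 CPM in ImC and 472, 448 and 380 CPM in Bone (3.88 ± 0.96, adjusted p = 0.0185). The ImC libraries thus spread over 20-fold for Runx2, and its call was lost without Bone 1 (adjusted p = 0.0534) or Bone 2 (adjusted p = 0.0596). Dlx3, a homeobox factor, gave a cleaner split. It was at 0.517, 0.308 and 0 CPM in ImC and 161, 167 and 150 CPM in Bone (9.15 ± 0.64, adjusted p = 0.000206, and 9.75 without ImC 1).

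Mef2c, active in both maturing chondrocytes and osteoblasts, was present in ImC at 42.9, 50.8 and 37.4 CPM and higher in Bone at 876, 829 and 942 CPM (4.34 ± 0.27, adjusted p = 0.000155). Twist1 was at 6.11, 8.56 and 8.91 CPM in ImC and 66.2, 78.9 and 66.2 CPM in Bone (3.16 ± 0.25, adjusted p = 0.000327). The Wnt effectors Tcf7 and Lef1 went opposite ways. Tcf7 was at 1.03, 0.739 and 1.24 CPM in ImC and 75.4, 103 and 78.4 CPM in Bone (6.42 ± 0.33, adjusted p = 9.5e-05). Lef1 was at 40.3, 6.53 and 36.5 CPM in ImC and 10, 4.89 and 4.49 CPM in Bone, with overlapping libraries and a borderline call (-2.09 ± 0.68, adjusted p = 0.0456). The Lef1 call was lost in 5 of the 6 fits that left out a library (adjusted p 0.0625 to 0.155), the exception being the fit without ImC 2.

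Both type I collagen genes were far higher in Bone, with no overlap between libraries. Col1a1 (chr11:94936224-94953042, + strand) was at 276, 455 and 124 CPM in ImC and 24850, 29450 and 26100 CPM in Bone (6.55 ± 0.61, adjusted p = 0.000635). Col1a2 (chr6:4504814-4541544, + strand) was at 376, 181 and 524 CPM in ImC and 56390, 65360 and 52730 CPM in Bone (7.33 ± 0.59, adjusted p = 0.000327). Other collagens of bone were close to silent in ImC. Col22a1 was at 1.45, 2.96 and 2.74 CPM in ImC and 974, 1163 and 916 CPM in Bone (8.72 ± 0.42, adjusted p = 8.88e-05). Col13a1, a transmembrane collagen, and Col24a1, a fibrillar collagen of forming bone, were at most 0.985 and 5.24 CPM in ImC and at least 137 and 464.6 CPM in Bone. In all, 7 of 9 tested bone collagens were higher and 0 lower. Col3a1, abundant in loose connective tissue, was at 444, 778 and 23.6 CPM in ImC and 167, 604 and 503 CPM in Bone, with overlapping libraries (adjusted p = 0.983).

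Of 18 tested bone matrix genes, 14 were higher in Bone and 1 lower. The gene of bone sialoprotein, Ibsp (chr5:104299171-104311469, + strand), a phosphoprotein that nucleates mineral, was at 11.5, 8.31 and 20.2 CPM in ImC and 25260, 24200 and 20630 CPM in Bone (10.78 ± 0.60, adjusted p = 0.000122). Ibsp lies in a cluster of related genes on chromosome 5 with Dmp1 (chr5:104202613-104214102), Mepe (chr5:104325329-104338611) and Spp1 (chr5:104435118-104441050), all on the + strand. All 4 were higher in Bone, but only Ibsp and Mepe were even across the Bone libraries. Mepe had no read in ImC and 3.75, 3.37 and 3.07 CPM in Bone, at least 42.2-fold higher.

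The promoters of Ibsp and Mepe, neighbours that were both higher in Bone without overlap, and of Mmp13, a collagenase gene known as a Runx2 target, are given in the same form. They lie at chr5:104299037-104299286, chr5:104325079-104325328 and chr9:7272264-7272513 on GRCm38.p6, all on the + strand, and capitals also mark TATAAA, the TATA box.
Ibsp: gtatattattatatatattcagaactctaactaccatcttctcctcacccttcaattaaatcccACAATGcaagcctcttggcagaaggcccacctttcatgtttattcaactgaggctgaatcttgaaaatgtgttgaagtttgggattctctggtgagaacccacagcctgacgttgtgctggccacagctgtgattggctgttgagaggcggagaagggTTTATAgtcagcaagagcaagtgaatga
Mepe: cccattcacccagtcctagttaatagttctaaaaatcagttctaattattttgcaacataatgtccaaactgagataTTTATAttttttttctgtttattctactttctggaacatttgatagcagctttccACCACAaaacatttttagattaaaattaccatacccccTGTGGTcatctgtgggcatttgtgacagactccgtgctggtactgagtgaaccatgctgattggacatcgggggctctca
Mmp13: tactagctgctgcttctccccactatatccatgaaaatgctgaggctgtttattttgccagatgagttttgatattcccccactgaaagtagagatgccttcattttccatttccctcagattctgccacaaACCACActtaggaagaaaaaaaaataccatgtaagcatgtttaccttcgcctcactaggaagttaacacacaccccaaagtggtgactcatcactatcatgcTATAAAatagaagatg
Mepe holds the Runx core on the opposite strand at -118 to -113 and on the same strand at -80 to -75. It also holds TATAAA on the opposite strand at -173 to -168. Mmp13 holds the Runx core on the opposite strand at -118 to -113 and a TATA box at -16 to -11. Ibsp has no TGTGGT in this window, and holds a TATA box on the opposite strand at -28 to -23 and ACAATG at -186 to -181.

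Over the 9755 tested genes with a RefSeq promoter, 10.1% held TGTGGT on either strand, 5.62% ACAATG and 6.3% TATAAA. Not every list gene had a RefSeq promoter. Of 43 osteoblast list genes higher in Bone that had one, 9 (20.9%) held TGTGGT, 3 (6.98%) ACAATG and 12 (27.9%) TATAAA. Of 34 such chondrocyte list genes lower in Bone, 5 (14.7%) held TGTGGT, 5 (14.7%) ACAATG and 4 (11.8%) TATAAA. Among called genes with a log2 difference of at least 5, TATAAA was held by 11.9% of those higher and 12.8% of those lower. Across all 1780 genes higher and 1784 genes lower in Bone the shares with TGTGGT were 10% and 9.98%. A match of 6 letters is a description of the sequence, not a site.

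Dmp1 and Spp1, matrix phosphoproteins of osteocytes and osteoblasts, were higher in Bone with or without Bone 1, but the size of the difference depended on it. Dmp1 was at 0.31, 0.431 and 0.706 CPM in ImC and 1489, 95.7 and 88.6 CPM in Bone (10.14 ± 1.58, adjusted p = 0.00367, and 7.56 without Bone 1, adjusted p = 0.00146). Spp1 was at 0.725, 0.924 and 4.5 CPM in ImC and 2330, 62.3 and 69.2 CPM in Bone (8.65 ± 1.92, adjusted p = 0.0126). Its difference was 5.02 without Bone 1 (adjusted p = 0.0132) and 9.92 without ImC 3. Bone 1 thus exceeded the other Bone libraries by more than 10-fold at both genes, while every Bone library exceeded every ImC library. Ank, a pyrophosphate transporter, had the same shape, with 126, 25 and 24.1 CPM in Bone and 4.14, 7.95 and 1.15 CPM in ImC (adjusted p = 0.0181, 0.0556 without Bone 1 and 0.0635 without ImC 1). Enpp1, which makes pyrophosphate and so restrains mineral, was at 161, 9.89 and 7.7 CPM in Bone and 30.6, 128 and 22.3 CPM in ImC, with overlapping libraries and no call (adjusted p = 0.992).

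Sparc, osteonectin, was high in both tissues, at 819, 2060 and 482 CPM in ImC and 10230, 12270 and 10300 CPM in Bone (3.29 ± 0.57, adjusted p = 0.0054, and 4.04 without ImC 2). Ifitm5, a membrane protein of mineralizing osteoblasts, went from 1.35, 1.05 and 4.94 CPM to 464, 533 and 507 CPM (7.69 ± 0.69, adjusted p = 0.00055, and 8.73 without ImC 3). Osteocalcin, by contrast, was scarcely detected. Bglap had 3.95, 1.2 and 0.856 CPM in Bone and at most 0.246 CPM in ImC (adjusted p = 0.0268, and 0.0529 to 0.117 without ImC 1 or any Bone library). Bglap, Bglap2 and Bglap3 are near-identical copies on chromosome 3 whose reads may be split or dropped by the counting, so this level is uncertain. Smoc2, a matricellular protein, was the member that was lower in Bone, at 4.83, 11 and 16.5 CPM against 137, 297 and 56.6 CPM. Bgn, biglycan, did not pass the test, with an interval of -1.43 to 1.21, but was higher in Bone without ImC 2 (0.90, adjusted p = 0.0278).

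Of 11 tested genes of mineralization and phosphate transport 7 were higher in Bone and 1 lower (5 higher without Bone 1 or Bone 2). Alpl, tissue-nonspecific alkaline phosphatase, was at 1.14, 0.308 and 1.59 CPM in ImC and 499, 808 and 691 CPM in Bone (9.40 ± 0.66, adjusted p = 0.000206). Phex, an endopeptidase of phosphate control, was at 0.517, 0.493 and 1.15 CPM in ImC and 438, 422 and 325 CPM in Bone (9.10 ± 0.45, adjusted p = 8.88e-05). Slc13a5, a citrate transporter, was at most 2.48 CPM in ImC and at least 513 CPM in Bone (8.67 ± 0.56, adjusted p = 0.000163, and 9.30 without ImC 1). The lower gene was Slc20a1, a phosphate transporter, at 49.5, 50.6 and 91.6 CPM in ImC and 16, 13.8 and 21 CPM in Bone (-1.91 ± 0.33, adjusted p = 0.00505). Phospho1, a phosphatase of matrix vesicles, had no read in any of the 6 libraries. Whether its RNA was absent or its reads were not counted was not tested.

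Genes of late osteoblasts and osteocytes were mostly higher in Bone, with 9 of 12 tested (75%) higher and 0 lower. The shares over all tested genes were 18.1% and 19.7%. There were 6 higher without ImC 1 or Bone 2, 7 without Bone 3, 8 without Bone 1 and 12 without ImC 2. Dkk1, a Wnt inhibitor, was at 0, 0.369 and 0.441 CPM in ImC and 177, 146 and 224 CPM in Bone (9.25 ± 0.64, adjusted p = 0.000202). Tmem119 was at 5.28, 7.88 and 2.56 CPM in ImC and 564, 615 and 614 CPM in Bone (6.82 ± 0.49, adjusted p = 0.000223). Sost, which encodes the osteocyte product sclerostin, had 1 read in ImC and 9.74, 2.94 and 8.34 CPM in Bone, a ratio of 282 with a counting interval of 50.2 to 11170. Sost reads were thus present in all 3 Bone libraries. Panx3, a channel of osteoblasts and hypertrophic chondrocytes, was at 28.1, 0.616 and 1.94 CPM in ImC and 478, 694 and 582 CPM in Bone, and its adjusted p of 0.0148 became 0.0515 without Bone 2.

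Of 26 tested receptors, ligands and related genes of osteoblasts, 14 (53.8%) were higher in Bone and 1 (3.85%) lower (3 lower without ImC 3), with a median of 2.03. The shares over all tested genes were 18.1% and 19.7%. The number higher was 12 without ImC 1, 11 without Bone 1 and 10 without Bone 2 or Bone 3. It was 17 without ImC 2 and 16 without ImC 3. Mmp13 had 1 read in ImC and 26.9, 48.1 and 47.1 CPM in Bone, a ratio of 1470 with a counting interval of 263.5 to 58110. Slc36a2, a proline and glycine transporter of osteoblasts, was at most 1.03 CPM in ImC and at least 154 CPM in Bone (8.07 ± 0.43, adjusted p = 0.000117). Tgfb1 was at about 0.1 CPM in each ImC library and at 18.9, 17.3 and 14.6 CPM in Bone (7.18 ± 0.41, adjusted p = 0.000127). Tnfsf11, which encodes RANKL, the signal that forms osteoclasts, had 1 read in ImC and 3.4, 4.68 and 4.28 CPM in Bone (ratio 150, interval 26.6 to 5974). Its decoy receptor Tnfrsf11b, osteoprotegerin, was at 18.3, 19.2 and 0.794 CPM in ImC and 2.25, 3.7 and 2.57 CPM in Bone (adjusted p = 0.108, and 0.000296 without ImC 3). Pth1r, the receptor for parathyroid hormone and PTHrP, was expressed in both tissues, at 184, 124 and 714 CPM in ImC and 428, 465 and 374 CPM in Bone. Its adjusted p was 0.717, and 0.00198 without ImC 3. The member that was lower in Bone was Fgfr2 (-1.74 ± 0.37, adjusted p = 0.0104, and 0.0528 without Bone 1).

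Both tissues secrete collagen, and of 28 tested genes of its processing and folding 9 (32.1%) were higher in Bone, 7 (25%) lower and 12 not called, beside 18.1% higher and 19.7% lower among all tested genes. Lox, the lysyl oxidase that crosslinks fibrils, was at 1.86, 5.36 and 13.2 CPM in ImC and 1589, 1733 and 1519 CPM in Bone (7.88 ± 0.79, adjusted p = 0.000818, and 8.75 without ImC 3). Loxl4, a relative, was higher in Bone, at 76.8, 74.6 and 62.2 CPM against 1.45, 1.35 and 1.68 CPM (5.57 ± 0.26, adjusted p = 8.88e-05). Loxl3 was lower, at 5.65, 8.92 and 6.85 CPM against 168, 202 and 146 CPM (-4.59 ± 0.29, adjusted p = 0.00016). Plod2, a lysyl hydroxylase, was lower in Bone, at 112, 136 and 137 CPM against 720, 836 and 477 CPM (-2.40 ± 0.29, adjusted p = 0.0016). Plod1, Plod3, P4ha3, Leprel2 and Adamts3 were lower too, but Leprel2 lost its call without Bone 1 or Bone 3 (adjusted p 0.053 and 0.0632) and Adamts3 without any library other than ImC 2 (0.0673 to 0.154). Adamts2, the procollagen I propeptidase, was higher (5.05 ± 0.31, adjusted p = 0.000155), as was Creb3l1, a factor that induces type I collagen (8.18 ± 0.49, adjusted p = 0.000145, and 8.78 without ImC 3). Creb3l2, its counterpart in chondrocytes, went the other way, at 330, 300 and 339 CPM in ImC and 72.5, 63.9 and 55.9 CPM in Bone (-2.33 ± 0.22, adjusted p = 0.000732).

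Genes of hypertrophic chondrocytes, cells that share products with osteoblasts, were split, with 7 of 13 (53.8%) higher in Bone and 3 (23.1%) lower. Among all tested genes 18.1% were higher and 19.7% lower. Sgms2, a sphingomyelin synthase, was higher at 563, 650 and 668 CPM against 6.83, 8.93 and 6.27 CPM (6.41 ± 0.30, adjusted p = 8.88e-05). Foxa3 was lower, at most 0.204 CPM in Bone against 54.5, 38 and 64.3 CPM in ImC (-8.53 ± 0.46, adjusted p = 0.000117). Runx3 and Vegfa were the other members that were lower, and both lost the call without any 1 Bone library (adjusted p 0.0505 to 0.0697). Col10a1, the defining collagen of hypertrophic cartilage, was at or under 3.15 CPM in all 6 libraries, so neither tissue held many reads of it. Without Bone 1 or Bone 3 only 1 of these genes was lower, and without Bone 2 there were 4 higher and 1 lower.

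Notch genes moved 1 way among those that passed, with 8 of 12 (66.7%) higher in Bone and 0 lower. The shares over all tested genes were 18.1% and 19.7%. The median of the list was 4.29, or 3.55 with genes at 0 reads set to their bound. There were 6 higher without ImC 1, Bone 2 or Bone 3, and 11 without ImC 2. Hey1, a Notch target, was at 0, 0.0616 and 0.441 CPM in ImC and 88.6, 79.7 and 97.4 CPM in Bone (9.0 ± 0.68, adjusted p = 0.000271, and 10.84 without ImC 3). The ligands Dll1 and Jag2 had 2 and 1 reads in ImC and 4.15, 7.07 and 8.77 CPM and 2.79, 3.59 and 2.35 CPM in Bone. Notch2, the receptor with the highest level, was at 35.7, 49.1 and 29.8 CPM in ImC and 54.2, 66.1 and 64 CPM in Bone (adjusted p = 0.0676, and 0.0294 without ImC 2). Endothelial cells also use Notch ligands, and endothelial markers were higher in Bone too, at 114.5 to 336 CPM summed against 23.4 to 50.8 CPM. Their part in these counts was not tested.

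Of 31 tested BMP and TGF-beta genes 10 (32.3%) were higher, 4 (12.9%) lower and 17 not called, beside 18.1% and 19.7% among all tested genes. The ligands Bmp4 and Bmp8a were higher in Bone. Bmp4 was at 1.76, 1.17 and 0.706 CPM in ImC and 44, 29.9 and 25.8 CPM in Bone (4.78 ± 0.43, adjusted p = 0.000525), and Bmp8a at most 0.414 CPM in ImC and at least 27.7 CPM in Bone. Smad6, an inhibitor induced by BMP signals, was at 6.11, 10.6 and 6.35 CPM in ImC and 59.6, 59.1 and 57.8 CPM in Bone (2.93 ± 0.29, adjusted p = 0.000773). Id4 was lower, at 3.54, 1.52 and 1.64 CPM in Bone against 75.9, 166 and 31.3 CPM (-5.33 ± 0.72, adjusted p = 0.00227, and -4.58 without ImC 2). Gdf5, Gdf10 and Inhba were the other members that were lower. Without Bone 1 or Bone 2 there were 2 lower, since Gdf10 (adjusted p 0.0549 and 0.0623) and Inhba (0.0788 and 0.08) lost the call, and Inhba lost it without Bone 3 too (0.0654).

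Among Wnt targets and inhibitors 9 of 22 (40.9%) were higher in Bone and 5 (22.7%) lower, beside 18.1% and 19.7% of all tested genes. Besides Tcf7, Dkk1 and Frzb, Lgr6, a receptor that amplifies Wnt signals, was at most 0.801 CPM in ImC and at least 53.2 CPM in Bone (6.93 ± 0.45, adjusted p = 0.000163, and 7.64 without ImC 2). Its relative Lgr5 was lower, at 0.681, 0.217 and 1.43 CPM in Bone against 2.9, 36.8 and 4.41 CPM, a call lost without any 1 Bone library (adjusted p 0.0615 to 0.0993). Sfrp5, a secreted Wnt inhibitor, had 1 read in Bone and 12.6, 37.5 and 35.9 CPM in ImC (ratio 1159 in favour of ImC, interval 207.5 to 45810). Only 1 of these genes was lower by the test without any single Bone library, and 2 without ImC 1. Of 14 hedgehog genes 5 (35.7%) were lower and 1 (7.14%), Ihh, was higher. Ihh lost its call without ImC 2 (adjusted p = 0.0568) or any 1 Bone library (0.0537 to 0.0984). Boc, a coreceptor, was at 82.2, 144 and 93.7 CPM in ImC and 26.3, 32.8 and 26.2 CPM in Bone (-1.91 ± 0.28, adjusted p = 0.00298). Ptch1, receptor and target, had overlapping levels (interval -0.59 to 0.98). Without Bone 1 or Bone 2 there were 2 lower hedgehog genes, and 3 without Bone 3.

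Of 15 tested FGF genes 4 (26.7%) were lower and 2 (13.3%) higher, shares near the 19.7% and 18.1% of all tested genes. The lower ones were the receptors Fgfr2, Fgfr3 and Fgfr4 and the decoy Fgfrl1, which was at 86.3, 131 and 41.6 CPM in ImC and 11.8, 10.3 and 10.7 CPM in Bone (-2.98 ± 0.43, adjusted p = 0.00271). The higher ones were Fgfr1 and Spry1, and both lost the call without ImC 1 or any 1 Bone library (adjusted p 0.0778 to 0.12). Fgfr4 lost it without ImC 1, Bone 1 or Bone 2 (0.0559 to 0.0908), and Fgfr2 without Bone 1 (0.0528). Without Bone 1 there were 2 lower, and 4 or 6 higher without ImC 2 or ImC 3. The imprinted growth genes Igf2 and H19 were both lower in Bone. Igf2, a fetal growth factor, was at 7097, 10680 and 14120 CPM in ImC and 1612, 882 and 1842 CPM in Bone (-2.88 ± 0.44, adjusted p = 0.00329). H19, the noncoding RNA beside it on chromosome 7, was at 6261, 9472 and 13780 CPM in ImC and 635, 404 and 697 CPM in Bone (-4.09 ± 0.44, adjusted p = 0.00107). Igf1 was higher, at 28.4, 24.1 and 31.6 CPM in Bone against 0.31, 0.431 and 5.03 CPM, with an adjusted p of 0.0177 that became 0.0543 to 0.0571 without any 1 Bone library. Over the list of IGF and its binding proteins 3 of 11 genes (27.3%) were higher and 5 (45.5%) lower. These counts became 1 and 2 without any single Bone library.

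The libraries also differed in genes that mark body position. Of 15 tested limb and trunk factors 12 were lower in Bone and 2 higher, with a median of -8.66 (-6.82 with genes at 0 reads set to their bound). Hoxa9 (chr6:52223100-52231089, - strand) was at 121, 82.2 and 240 CPM in ImC and had 2 reads in all of Bone, a ratio of 2662 in favour of ImC with a counting interval of 736.4 to 21980. Hoxa5 was at 58.3, 52.5 and 54.6 CPM in ImC and also had 2 reads in Bone. Tbx5 (chr5:119832668-119885219, + strand), the forelimb factor, was at 68.5, 106 and 143 CPM in ImC with 2 reads in Bone, a ratio of 2041 (interval 564.6 to 16860). Meis1, a cofactor of Hox proteins, was at 19.1, 22.3 and 23.5 CPM in ImC and 1.43, 1.85 and 1.43 CPM in Bone (-3.79 ± 0.30, adjusted p = 0.0003). Hox reads were present in every ImC library, and in Bone the exception to near absence was Hoxd8, at 1.77, 2.07 and 3.71 CPM.

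The reverse held for factors of jaw and face, with 9 of 16 higher in Bone and 1 lower (3 lower without ImC 3, and 0 without ImC 1, Bone 1, Bone 2 or Bone 3), a median of 4.82. This list shares members with the osteoblast transcription factors, Dlx3 among them, so its count is not a separate result. Lhx8 (chr3:154306294-154330659, - strand), a factor of the maxillary and mandibular arch, had 3 reads in ImC and 43.8, 52.4 and 50.1 CPM in Bone, a ratio of 598 (interval 204 to 2903). Prrx1 was present in both, at 6.83, 4.99 and 10.6 CPM in ImC and 350, 290 and 278 CPM in Bone (5.36 ± 0.37, adjusted p = 0.000202). Prrx2 rose as well, from at most 0.862 CPM to 15.2, 22.4 and 24.5 CPM (5.59 ± 0.68, adjusted p = 0.00156, and 7.05 without ImC 2). The 2 members of the limb list that were higher in Bone were Pitx1 and En1. Pitx1, which acts in the hindlimb and also in the mandibular arch, was at 24, 20.8 and 20.8 CPM in Bone with 4 reads in ImC 2 and none in ImC 1 or ImC 3. Position of origin and tissue cannot be told apart here, because the named factors split by tissue in all 3 libraries.

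**Figure D4:**
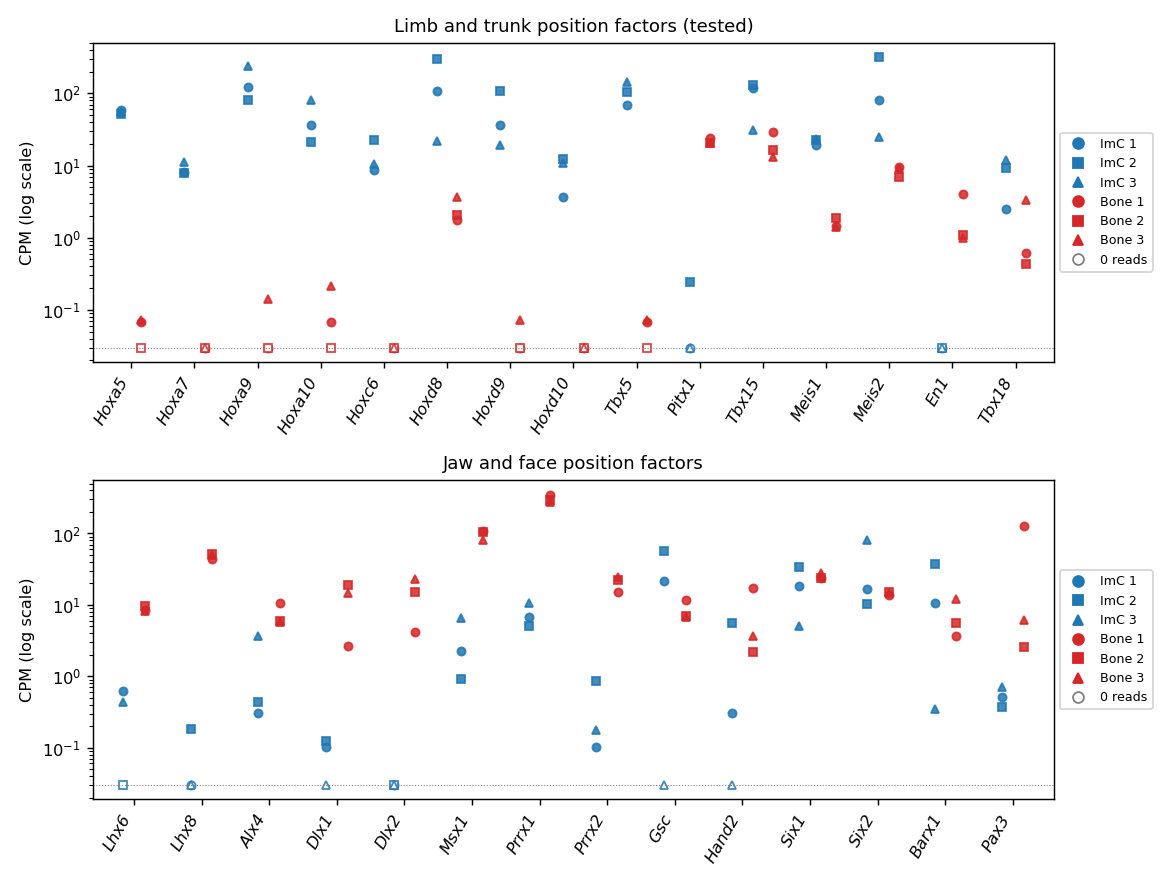
Level in CPM (y axis, log scale) of the tested limb and trunk factors (top) and of jaw and face factors reported here (bottom) in each library, ImC in blue and Bone in red, with open symbols on the dotted line for 0 reads. Hox genes and Tbx5 are higher in the ImC libraries and Lhx8, Dlx1 and Dlx2 in the Bone libraries, while Pax3 reaches 128 CPM in Bone 1 and 6.06 CPM or less in the others.

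The 15 largest differences in each direction, among genes without overlap and at 20 CPM or more in the higher tissue, mixed list members with genes outside them. Higher in Bone were, among others, Crym, Gal, Aplnr, Dcstamp, Insc, Clec2g, Ibsp, Ambn, Enpp6, Dmp1, Mmp13, Scn3a, Car3 and Gpr133. Crym, a thyroid hormone binding protein, had no read in ImC and 51.1, 64.4 and 54.1 CPM in Bone, at least 688-fold higher. Gal, the neuropeptide galanin, was at 28.7, 28.9 and 24.4 CPM in Bone with no read in ImC, at least 337-fold higher. Ambn, ameloblastin, a matrix protein of enamel also made in bone, was at 118, 107 and 108 CPM in Bone and had 2 reads in ImC, a ratio of 2077 (interval 574.7 to 17160). Car3, a carbonic anhydrase, was at 1003, 782 and 634 CPM in Bone and at most 1.76 CPM in ImC (9.98 ± 0.81, adjusted p = 0.000341, and 11.29 without ImC 3).

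Lower in Bone by the same rule were Scrg1, Itih5l-ps, Hoxa9, Serpina3n, Tbx5, Hoxd9, Susd5, Matn1, Mfi2, Acan, Cytl1, Hoxa5, C4b, Col9a3 and 3110079O15Rik, of which 3110079O15Rik is now named Snorc, a proteoglycan of cartilage. Serpina3n, a secreted protease inhibitor, was at 82, 56.9 and 55.1 CPM in ImC with 1 read in Bone, a ratio of 2383 (interval 427 to 94140). C4b, a complement component, was at 23, 24.2 and 48.2 CPM in ImC with 1 read in Bone, a ratio of 1182 (interval 211.7 to 46730). Both have close relatives in the genome whose reads may be confused with theirs. Mfi2, melanotransferrin, an iron-binding surface protein of chondrocytes, was at 97.2, 47.6 and 136 CPM in ImC and at most 0.109 CPM in Bone.

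Cell cycle genes were more often lower than higher in Bone, with 17 of 28 (60.7%) lower, 1 (3.57%) higher and 10 not called (median -1.19). The shares over all tested genes were 19.7% lower and 18.1% higher. Top2a, a topoisomerase of dividing cells, was at 488, 502 and 284 CPM in ImC and 64.7, 44 and 63.8 CPM in Bone (-2.88 ± 0.33, adjusted p = 0.00123). Mki67 was at 216, 215 and 162 CPM in ImC and 24.2, 26.2 and 39.9 CPM in Bone (-2.71 ± 0.29, adjusted p = 0.00102). The cell cycle inhibitor Cdkn1a was the member that was higher, at 149, 128 and 141 CPM in Bone against 2.69, 7.39 and 5.56 CPM (4.72 ± 0.40, adjusted p = 0.000421). The count of lower genes was 8 with scaling by library size alone, 11 without ImC 1, 27 without ImC 3, 10 without Bone 1, 9 without Bone 2 and 11 without Bone 3. The named genes kept their direction in each of those fits.

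Genes of glycolysis and hypoxia were also more often lower than higher, with 12 of 30 (40%) lower and 1 (3.33%) higher (median -0.95). Among all tested genes 19.7% were lower and 18.1% higher. Hk2, hexokinase 2, was at 134, 236 and 172 CPM in ImC and 32.1, 33 and 36.6 CPM in Bone (-2.41 ± 0.27, adjusted p = 0.00126). Pkm, pyruvate kinase, was at 712, 1007 and 1015 CPM in ImC and 231, 346 and 298 CPM in Bone (-1.64 ± 0.28, adjusted p = 0.00501). Car12, a carbonic anhydrase induced in low oxygen, was at 23.9, 37.3 and 5.21 CPM in ImC with 1 read in Bone. Ldha, lactate dehydrogenase, was at 766, 1319 and 253 CPM in ImC and 502, 885 and 857 CPM in Bone, with no difference by the test (adjusted p = 0.942). Epas1, which encodes HIF-2 alpha, was higher (adjusted p = 0.0172, and 0.0536 to 0.0697 without any 1 Bone library). The number lower was 6 with library size scaling, 6 without Bone 1, 7 without Bone 2 and 19 without ImC 3. Of 31 tested secretory pathway genes 10 (32.3%) were higher, 1 (3.23%), Creb3l2, was lower and 20 were not called (median 0.55). The shares over all tested genes were 18.1% higher and 19.7% lower. There were 6 higher without Bone 1 or Bone 3, 7 higher without Bone 2, and 3 lower without ImC 3. Sec31a, a coat protein of the vesicles that carry procollagen, was at 639, 499 and 605 CPM in Bone and 168, 219 and 165 CPM in ImC (1.66 ± 0.25, adjusted p = 0.00311).

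Markers of other cell types were not even between the tissues. For the counts below, the shares over all tested genes were 18.1% higher and 19.7% lower. Of 16 tested osteoclast genes 12 were higher in Bone and 0 lower, and their summed level was 763 to 1640 CPM in Bone and 91.1 to 220 CPM in ImC. Ctsk, the collagen-degrading protease of osteoclasts, was at 324, 520 and 483 CPM in Bone and 4.55, 5.36 and 1.94 CPM in ImC (6.8 ± 0.49, adjusted p = 0.000239). Dcstamp, needed for osteoclast fusion, had no read in ImC and 10.3, 24.6 and 29.7 CPM in Bone, at least 260-fold higher. Of 22 endothelial genes 16 were higher and 0 lower, with a summed level of 114.5 to 336 CPM in Bone and 23.4 to 50.8 CPM in ImC. Of 13 macrophage and leukocyte genes 11 were higher and 0 lower, at 72 to 170 CPM against 14.7 to 39.9 CPM. In all 3 lists Bone 1 had the lowest sum of the Bone libraries, and Bone 1 was also the library with the highest Spp1 and Dmp1. The part of these cells in the Bone profile was not tested, and Mmp9 and Car2 each stand in a further list.

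Erythroid genes summed higher in every Bone library than in any ImC library. Of 10 tested, 9 had Bone above without overlap, beside 31.3% of all tested genes, though only 2 were called. Muscle and perichondrial sums varied within each tissue. Hba-a1, a globin gene with near-identical copies, was at 2955, 2123 and 2526 CPM in Bone and 2.07, 7.7 and 447 CPM in ImC, so that ImC 3 held most of the ImC globin reads. Its adjusted p was 0.102, and 8.46e-05 without ImC 3. The summed erythroid level was 10130 to 14210 CPM in Bone, 57.45 and 76.1 CPM in ImC 1 and ImC 2, and 2276 CPM in ImC 3. Muscle genes summed to 163 CPM in ImC 3 and 313.5 CPM in Bone 3 and to 25.55 to 47.3 CPM in the other 4 libraries. The perichondrium, tendon and fibroblast list summed to 657 to 2461 CPM in ImC and 1577 to 2898 CPM in Bone. Of its 22 tested genes 7 (31.8%) were higher and 3 (13.6%) lower, beside 18.1% and 19.7% of all tested genes. Dcn, decorin, was the clearest of them, at 267, 430 and 380 CPM in Bone and 4.35, 1.66 and 5.91 CPM in ImC (6.51 ± 0.55, adjusted p = 0.000421). That list gave 4 higher without ImC 1, 3 higher without Bone 2 or Bone 3, 5 lower without ImC 3, and 1 lower without any 1 of the Bone libraries.

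**Figure D5:**
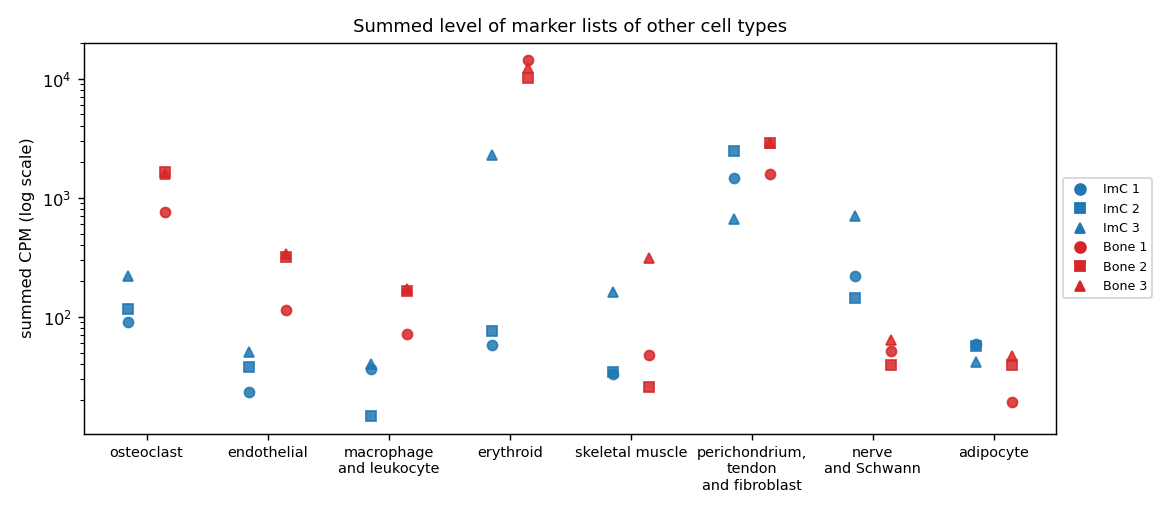
Summed CPM (y axis, log scale) of the marker lists of 8 other cell types in each library, ImC in blue and Bone in red, with a marker shape per replicate. Bone 1 lies below Bone 2 and Bone 3 for osteoclast, endothelial and macrophage markers, and ImC 3 lies above the other ImC libraries for erythroid, muscle and nerve markers. Most of the nerve sum in ImC is S100b, which chondrocytes also make.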

How the data were processed

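RNA was isolated with PicoPure, amplified in 1 round and made into TruSeq libraries that do not mark strand, per the labels' protocols. Trimmomatic 0.30, TopHat2, Bowtie2, HTSeq, edgeR and the mm10 build are named in the submitters' processing notes without role or order. The authors deposited raw read counts per gene, used here, and a normalized table, treated as a score, which equals the deposited counts times 1 factor per library.

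Counts of the 3 ImC and 3 Bone libraries were fitted with edgeR 4.0.16 in R 4.3.3 (filterByExpr with a minimum count of 10, TMM, quasi-likelihood F test, Benjamini-Hochberg adjustment over 13832 genes, threshold 0.05). The SE is the log2 difference divided by the square root of F, and intervals are 95%. Where the lower tissue had 0 reads the fold is a bound against 3 reads over the group, and with 1 to 3 reads a ratio with a counting interval. The 95% intervals of differences come from the fit and include the spread between libraries, whereas ratio intervals and floors cover counting error only. Alternatives used DESeq2 1.42.0 and limma 3.58.1, other scalings and filters, and fits without each library. Coordinates are from GENCODE M21 on mm10, which matched 13006 of 13832 genes (94%), and promoters are RefSeq's on GRCm38.p6.

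Members and lists were chosen with earlier results of these data known. Genes were named if they belong to the chondrocyte or osteoblast lists, were among the 15 largest differences per direction (called, no overlap, at least 20 CPM in the higher group), had the smallest p, the highest level or a direction against the median in another list, or share reads with copies or neighbours. A few other members, such as Ptch1 and Col10a1, were named after their values were seen. Some genes of these lists are not reported here.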

Additional observations from a re-analysis of the deposited data

How the results depend on the processing

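Leaving out 1 library in turn gave 1321 to 3671 genes higher in Bone and 1192 to 3485 lower, with 47 to 73 osteoblast and 41 to 58 chondrocyte list genes called in the direction of the list. Scaling by library size alone gave 1602 lower genes in place of 2726. No called gene named here changed sign under any alternative. Deviations from the group means correlated at 0.072, 0.019 and -0.074 between same-numbered libraries, and at -0.091 to 0.086 between the others. With 3 libraries per group, these values cannot show whether samples of the same number were paired. The replicate block gave 1940 higher and 1883 lower, with 64 osteoblast and 44 chondrocyte genes.

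Sign changes were limited to genes without a call in the reported fit, and the cause was not tested. With library size scaling Col11a1 was at 0.05, Trps1 at 0.03, Bgn at 0.19, Ldha at 0.25 and Enpp1 at 0.28. Enpp1 was at 0.00 with DESeq2 size factors, 0.03 with the authors' factors and 0.05 with no filter. Col3a1 was at -0.01 without mitochondrial genes and -0.02 at a minimum count of 50. Limma-voom gave 0.24 for Bgn and 0.20 for Ldha, and the replicate block 0.26 and 0.15. Without ImC 2, Col3a1 was at 0.83, Enpp1 at 1.15, Pth1r at -0.12, Trps1 at 0.14, Bgn at 0.90 and Ldha at 0.52. Without ImC 3, Col3a1 was at -0.53, Prg4 at -0.01, Trps1 at -0.59, Bgn at -0.46, Ldha at -0.48 and Pth1r at 1.46. Without Bone 1, Ldha was at 0.17, Ptch1 at 0.48 and Enpp1 at -2.77. Without Bone 2, Col3a1 was at -0.29 and Enpp1 at 0.50. Without Bone 3, Col3a1 was at -0.09, Enpp1 at 0.52 and Ptch1 at -0.05.

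At a minimum count of 50, 8 endothelial, 4 macrophage and 5 Notch genes were higher in place of 16, 11 and 8, with fewer genes tested. Erythroid genes higher numbered 2, and 8 without ImC 3 or with the replicate block. Depth limits genes near 1 CPM, such as Bglap and Prg4.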

Other observations

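Of 20 tested matrix proteases and their inhibitors 6 (30%) were higher in Bone, 0 lower and 14 not called. Among all tested genes 18.1% were higher and 19.7% lower. Timp1, an inhibitor of metalloproteinases, was at 38.2, 31.2 and 36.1 CPM in ImC and 269, 239 and 203 CPM in Bone (log2 difference 2.75 ± 0.23 SE, edgeR adjusted p = 0.000421). Adamts9, a protease that cleaves proteoglycans, was at 105, 106 and 103 CPM in Bone and 6, 7.88 and 2.56 CPM in ImC (4.24 ± 0.42, edgeR adjusted p = 0.000803). Of 4 tested connexins and pannexins 2, Gja1 and Panx3, were higher and 1 was lower, and Gja1 (edgeR adjusted p = 0.0256) lost its call without ImC 1 or any 1 Bone library (0.0639 to 0.0856). Without Bone 2 there were 0 higher, and without ImC 1, Bone 1 or Bone 3 there was 1. The lower gene was Gjc1, connexin 45, at 13, 17.7 and 21.7 CPM in Bone and 45.2, 58.5 and 56 CPM in ImC (-1.61 ± 0.26, edgeR adjusted p = 0.00437).

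Of 11 tested nerve and Schwann cell genes 4 (36.4%) were higher in Bone and 4 (36.4%) lower (2 lower without Bone 1 or Bone 2). Among all tested genes 18.1% were higher and 19.7% lower. S100b, used as a marker of Schwann cells and also made by chondrocytes, was at 192, 123 and 641 CPM in ImC and 1.23, 0.761 and 1.07 CPM in Bone (-8.25 ± 0.82, edgeR adjusted p = 0.000791, and -7.22 without ImC 3). Gap43, a growth cone protein, went the other way, at 30.7, 29 and 34.7 CPM in Bone and 3.42, 2.16 and 7.59 CPM in ImC. Of 16 muscle genes 1 was higher and 1 lower (5 higher without ImC 3), and of 3 tested adipocyte genes 0 were higher and 1 was lower.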
